A study of Sorghum bicolor with 12 samples.

Results

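Ribosome footprints were set against mRNA, transcript by transcript, in sorghum shoots (Sorghum bicolor, the inbred line BTx623) grown with sufficient sulfate. The transcripts were those with a mean of 10 or more counts over the 3 control shoots both in the footprint table and in the RNA table. They numbered 16677 of the 34026 transcripts listed in both tables, and the deposited tables list 1 transcript per gene ID. Ribo-seq counts the short mRNA fragments that ribosomes protect from nuclease, here assigned to the codon in the ribosomal P site and summed over the coding sequence. RNA-seq counts fragments of the mRNA itself. Per the labels, seedlings germinated for 5 days and then grew for 8 days on a nutrient solution with 500 µM sulfate, and whole shoots were taken 13 days after sowing. Shoots treated alike but supplied with 10 µM sulfate, also 3, were used only for comparison. The supply of these is 10 µM in the sample titles and 0 µM in the series design. A powdered shoot supplied both of its libraries, so that each of the 3 ratios of footprints to mRNA comes from 1 plant sample.

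The ratio of footprints to mRNA of a transcript is the usual estimate of its translational efficiency, the density of ribosomes along its mRNA. Neither count was divided by length here, so the ratio does not give the number of ribosomes per mRNA molecule. Ribosome density is set by how often ribosomes start on the mRNA and by how fast they move along it. Features such as upstream open reading frames and leader structure are known to lower it. In C4 grasses such as sorghum a small set of photosynthetic mRNAs takes a large part of the leaf's translation. The ratio used here is relative: libraries were scaled so that the trimmed mean ratio over transcripts is 1, and a log2 ratio of 1 therefore means 2-fold more footprints per mRNA count than the average transcript. Footprints were summed over coding sequences, and whether mRNA counts also covered untranslated regions is not given in the sources used here, so that the share of a transcript that is coding cannot be told apart from efficiency.

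The control footprint libraries held 8668690 to 11066815 counts and the control RNA libraries 14070464 to 16356049. The transcripts studied took 99.33% to 99.45% of the footprints and 98.64% to 98.71% of the mRNA counts. Across them, log2 footprint and log2 mRNA levels of the same shoot had Pearson's r of 0.871, 0.876 and 0.892 in shoots 1, 2 and 3 and Spearman's rho of 0.865, 0.871 and 0.889 (16677 transcripts, which are not independent replicates). Levels are given as CPM, counts per 1000000 of the TMM-scaled library. Control shoot 3 stood apart from shoots 1 and 2 in both assays, with footprint correlations of 0.976 and 0.979 to them against 0.987 between shoots 1 and 2 (Pearson's r of log2 levels).

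Most transcripts carried more or fewer footprints than their mRNA level alone would give. Of the 16677 transcripts, 11769 (70.6%) had a ratio that departed from the average past an adjusted p of 0.05 (edgeR quasi-likelihood test with the shoot as a block, Benjamini-Hochberg adjusted over all 16677). Of these, 5767 (34.6%) were higher in footprints and 6002 (36%) were lower, so that 49% of the calls were higher. Scaled by library totals alone, 33.5% of 11814 calls were higher. An estimated departure of at least 2-fold was found in 4464 of the called transcripts (26.8% of all), 1617 (9.7%) higher and 2847 (17.1%) lower. These were tested against the average ratio. Tested against a 2-fold departure, edgeR called 2661, of which 813 were higher and 1848 lower. The ratio had the same sign in all 3 shoots for 11665 of the 11769, and for 13555 (81.3%) of all 16677. The calls rest on these same shoots, so this agreement is a description and no separate support. Among the 4908 that missed the adjusted p of 0.05, 94% had an estimated log2 ratio within 0.5 of 0.

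**Figure D1:**
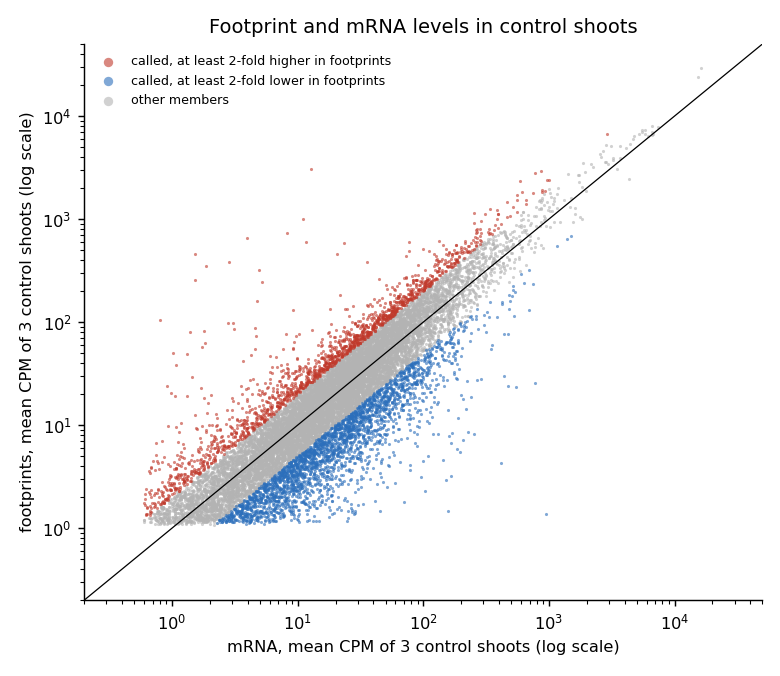
Mean footprint level (vertical) against mean mRNA level (horizontal) of each of the 16677 transcripts in the 3 control shoots, both in CPM on log scales, with the line of equal levels. The 1617 transcripts called at least 2-fold higher lie above the line and the 2847 called at least 2-fold lower lie below it, and a few points lie more than 16-fold away on either side.

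The spread of the ratio between transcripts was far wider than between plants. Averaged over the 3 shoots, log2 ratios varied among transcripts with an SD of 1.00. The 5th percentile lay at -1.84 and the 95th at 1.23, an 8.42-fold span. The median SD of a transcript's log2 ratio between the 3 shoots was 0.187. The lower tail was the longer: at least 4-fold departures numbered 156 higher and 677 lower, at least 8-fold ones 49 higher and 147 lower, and at least 16-fold ones 30 higher and 42 lower. The ranking repeated between plants. Of the 834 transcripts in the top 5% in shoot 1, 591 were in the top 5% of shoot 2 and 503 in that of shoot 3, and shoots 2 and 3 shared 550. At the bottom 5% the shared numbers were 633, 583 and 618.

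**Figure D2:**
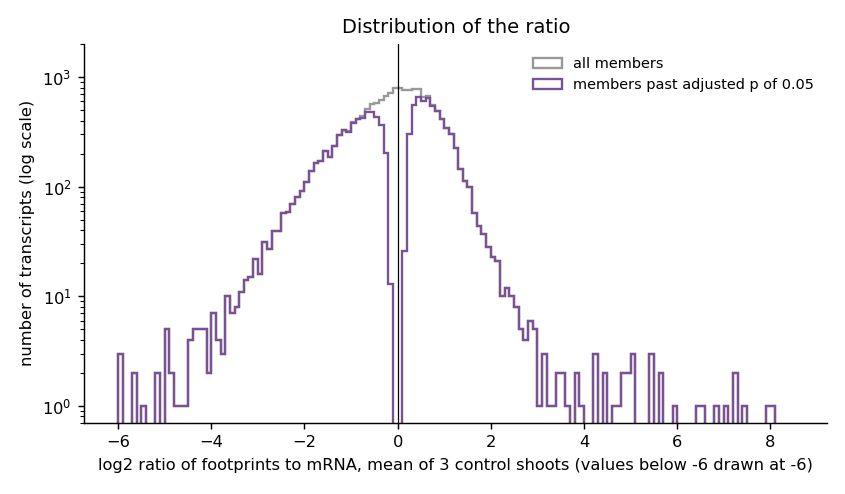
Number of transcripts (vertical, log scale) by mean log2 ratio of footprints to mRNA in control shoots (horizontal), for all members and for those past the adjusted p of 0.05. The bulk lies between -1.84 and 1.23, the 5th and 95th percentiles, with a broad lower shoulder and a sparse upper tail that reaches 8.05.

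The departures moved counts between the assays. Transcripts called at least 2-fold higher held 19.2% of all footprints and 8.64% of all mRNA counts (means of 3 shoots). Transcripts called at least 2-fold lower held 3.25% of footprints and 12.4% of mRNA counts. The 147 transcripts called at least 8-fold lower still held 1.41% of the mRNA counts and only 0.0727% of footprints. These 4 groups were chosen by the ratio, so their shares describe its size and are not a test of it.

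Among transcripts with a mean of at least 100 counts in both tables, the highest ratios were those of Sobic.003G168600.1 and Sobic.003G168700.1, neighbouring IDs on chromosome 3. The tables and the reference used here give neither a name nor a function for any of the IDs. Sobic.003G168600.1, with 156 codons, had 21770, 32379 and 26693 footprint counts and 251, 183 and 190 mRNA counts in shoots 1, 2 and 3. Its mean levels were 3091 ± 324 CPM in footprints and 12.7 ± 3.20 CPM in mRNA (SD, n = 3 shoots). The assays do not overlap, and the log2 ratio was 7.94 (SE 0.183, edgeR adjusted p = 1.709e-09), or 245-fold. Sobic.003G168700.1, with 232 codons, had 889, 933 and 1208 CPM in footprints and 14.5, 10.1 and 8.72 CPM in mRNA, a log2 ratio of 6.51 (SE 0.199, edgeR adjusted p = 1.087e-08). Control shoot 1 had the lowest ratio of the 3 for both. Whether sequences copied from an organelle genome lie behind these footprint counts was not tested, since no genome was used here.

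The lowest ratios under the same minimum were those of Sobic.006G135600.4 on chromosome 6 and Sobic.009G143700.1 on chromosome 9. Sobic.006G135600.4, with 455 codons, had 34.5, 24.1 and 18.2 CPM in footprints and 793, 760 and 748 CPM in mRNA. Footprints were thus low in all 3 shoots of an abundant mRNA, at a log2 ratio of -4.93 (SE 0.145, edgeR adjusted p = 6.544e-09), or 30.6-fold fewer footprints per mRNA count than average. Sobic.009G143700.1, with 444 codons, had 24.9, 22.3 and 23.2 CPM in footprints and 532, 532 and 587 CPM in mRNA, a log2 ratio of -4.55 (SE 0.0906, edgeR adjusted p = 9.7e-10). Below that minimum the ratio went lower still, to a log2 value of -9.36 for a transcript with means of 12.7 footprint counts and 15816 mRNA counts, so that its size rests on few footprints.

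With TMM scaling the most abundant transcripts lay at or above the average ratio, which did not hold for 2 of them when libraries were scaled by their totals. Of the 8 with the most footprints, 6 were called higher, 0 lower, and 2 missed the threshold, with log2 ratios of 0.07 to 0.83. Among all transcripts 34.6% were called higher, but the 8 were chosen by footprints, which favours high ratios, so their count is a description. Sobic.010G160700.1, on chromosome 10 with 1028 codons, led both assays by its mean level, with 28727, 26387 and 32142 CPM in footprints and 17453, 14767 and 16759 CPM in mRNA. Its log2 ratio was 0.83 (SE 0.0724, edgeR adjusted p = 3.697e-06). Sobic.009G132900.1, on chromosome 9 with 948 codons, followed with 23088, 21850 and 26238 CPM in footprints and 15570, 14894 and 15742 CPM in mRNA, a log2 ratio of 0.62 (SE 0.0715, edgeR adjusted p = 2.696e-05). Footprints exceeded mRNA in every shoot for both. The other 6 had mean footprint levels of 6954 to 7926 CPM. Scaled by library totals alone, which lowers the median log2 ratio by 0.261, the log2 ratios of these 6 lay within 0.2 of 0, with 0 called higher and 2 called lower, while the 2 leading transcripts stayed called higher. Of the 6, Sobic.005G087000.1 also lost its call with a mean of at least 50 counts (edgeR adjusted p = 0.06065) and without control shoot 2 (edgeR adjusted p = 0.0607). Sobic.007G071500.1 gained a call as higher without control shoot 3 (edgeR adjusted p = 0.04955). Per kilobase of coding sequence, the 8 had mean footprint levels of 8334 to 17586 CPM, the highest in a transcript of 132 codons.

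Footprints were concentrated on fewer transcripts than mRNA was. In footprints the 1000 most abundant transcripts held 60.9%, 59.8% and 60.6% of the counts in shoots 1, 2 and 3, and in mRNA 53.4%, 52.6% and 53.2%. The share was higher in footprints in 3 of 3 shoots, by 7.34 percentage points on average. The 100 most abundant held 30.5% ± 0.922 of footprints and 26.8% ± 0.395 of mRNA counts (SD, n = 3 shoots). With 3 pairs an exact two-sided sign-flip test cannot go below p = 0.25, the value found for both. To reach 50% of the counts took 495, 540 and 497 transcripts in footprints and 795, 842 and 808 in mRNA.

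Across all transcripts the mean log2 ratio and the mRNA level had a Spearman's rho of -0.0095, but from 8 to 512 CPM each class of higher mRNA level had a higher median ratio. Below that range the medians ran the other way, with -0.08 between 2 and 4 CPM and -0.18 between 4 and 8 CPM. The 3025 transcripts between 8 and 16 CPM in mRNA had a median log2 ratio of -0.18, with 29.2% called higher and 43% lower (background 34.6% and 36%). Between 64 and 128 CPM the median was 0.10, with 45.6% called higher and 38.6% lower of 1623 transcripts. It was 0.27 in the 267 transcripts between 256 and 512 CPM. In the 168 transcripts of 512 CPM or more it was also 0.27, with 57.1% called higher and 25.6% lower. The medians in shoots 1, 2 and 3 were 0.31, 0.23 and 0.32 in this highest class and -0.17 in each shoot between 8 and 16 CPM. Above 4 CPM the spread of log2 footprints exceeded that of log2 mRNA, with SD ratios of 1.23, 1.21 and 1.20 in shoots 1, 2 and 3 (14133 transcripts), to which counting noise in footprints adds. Below 2 CPM the median is not a fair one, since a transcript with so little mRNA passed only if its footprints were high. From 2 to 8 CPM the minimum of footprint counts still removed the lowest ratios, and its cut-off on the ratio fell as mRNA rose. Whether the ratio itself fell over this range therefore cannot be decided from these medians. The level of mRNA also enters both axes of the comparison.

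**Figure D3:**
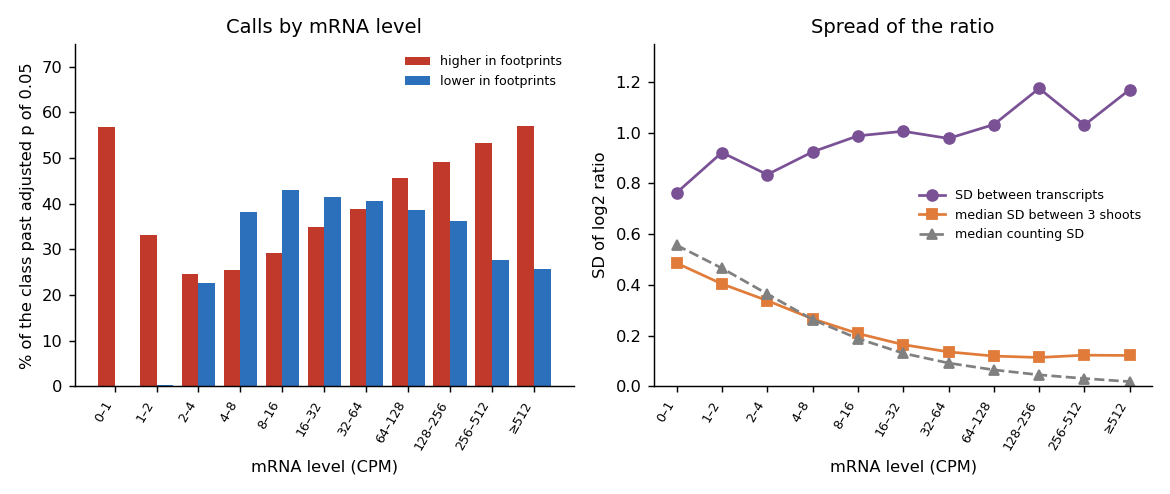
Left, the percentage of transcripts called higher and lower in footprints by mean mRNA level in CPM. Right, the SD of the log2 ratio between transcripts, the median SD between the 3 shoots and the median SD that counting error alone gives. The SD between transcripts stays above 0.7 in every class while that between shoots drops from 0.486 to about 0.12 at high levels.

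The spread between shoots was about as large as counting error at low levels and larger than it at high levels. Between 4 and 8 CPM in mRNA the median SD between shoots was 0.266 and the median counting SD 0.263. Among transcripts of 512 CPM or more these were 0.122 and 0.0185. The SD between transcripts was 0.925 and 1.17 in these same classes.

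Long coding sequences carried fewer footprints per mRNA count. For the 281 transcripts of more than 1440 codons the median log2 ratio was -0.44, with -0.48, -0.47 and -0.40 in shoots 1, 2 and 3. Of these, 160 (56.9%) were called lower and 70 (24.9%) higher, against 36% and 34.6% of all transcripts. They had a median of 31.1 CPM in footprints and 51.8 CPM in mRNA, and all transcripts one of 15.2 and 17.7 CPM. The 942 transcripts of 961 to 1440 codons, just below them in length, had a median log2 ratio of -0.05. The median was highest, 0.08, in the 822 transcripts of 121 to 160 codons and the 1978 of 161 to 240 codons. Across all transcripts the relation was weak, with a Spearman's rho of -0.0714 between the mean ratio and coding length.

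The shortest coding sequences had the largest SD of the ratio among the length classes, though not the widest quartiles. The 232 transcripts of 80 codons or fewer had an SD of the log2 ratio of 1.48, against 0.943 in the 1978 of 161 to 240 codons. Their quartiles lay at -0.82 and 0.58, and those of the 77 transcripts of more than 2000 codons at -1.19 and 0.31. Of the shortest, 14.7% were called at least 2-fold higher, the largest share of any length class, with a background of 9.7%. At least 2-fold lower were 19.8%, near the background of 17.1%. That share was larger at 641 to 960 codons (22.1%), 1441 to 2000 codons (27.9%) and more than 2000 codons (29.9%). The next class, 81 to 120 codons, had 13.5% higher and 18.1% lower. The median log2 ratio of the 232 transcripts of 80 codons or fewer was 0.06, 0.03 and -0.23 in shoots 1, 2 and 3.

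Control shoot 3 differed from the others along coding length, in footprints more than in mRNA. Its footprints on transcripts of 80 codons or fewer lay a median of 0.24 below the mean of the 3 shoots on the log2 scale, and those of shoot 1 lay 0.14 above it. On transcripts of more than 2000 codons the values were 0.12 above and 0.07 below. In mRNA the same shoots deviated in the same directions but less, by -0.05 and 0.05 in the shortest class and by 0.06 and -0.02 in the longest. Spearman's rho between ratio and coding length was -0.107 in shoot 1, -0.0926 in shoot 2 and -0.0078 in shoot 3. In the deficient shoots it was -0.038, -0.17 and -0.0215, so that shoots of 1 treatment differed among themselves there too. Without control shoot 3 the rho of the mean ratio was -0.101. With each library's deviation along coding length from the mean of its assay taken out, which leaves the mean relation of ratio and length as it was, edgeR called 11932 transcripts. The part of control shoot 3 in the other results was tested only by leaving it out.

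**Figure D4:**
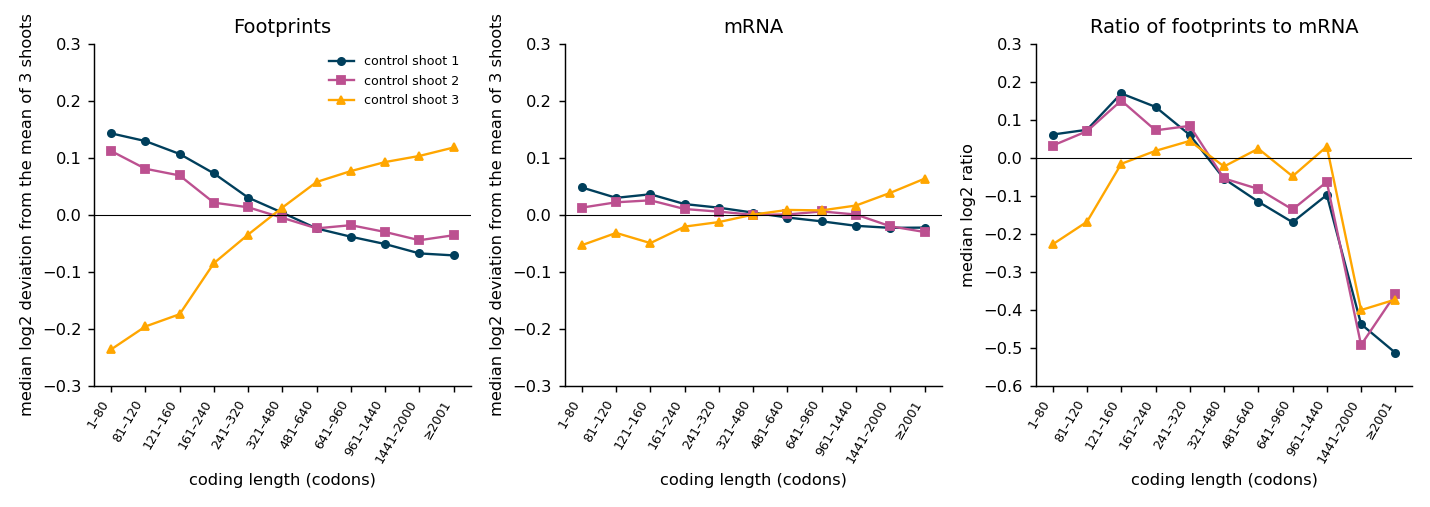
Median values by coding length in codons, for each control shoot. Left and middle, the log2 deviation of footprints and of mRNA from the mean of the 3 shoots. Right, the log2 ratio of footprints to mRNA. In footprints shoot 3 climbs from -0.237 to 0.118 with length while shoots 1 and 2 descend, and in all 3 shoots the ratio is lowest above 1440 codons.

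Among the most extreme ratios the high ones were found in short transcripts and the low ones were not. The 49 transcripts called at least 8-fold higher had a median of 139 codons, the 147 called at least 8-fold lower one of 448, and all 16677 one of 406. Of the 49, 27 had 160 codons or fewer, a length found in 9.86% of all transcripts, and 16 of the 147 did. The median mRNA level of the 49 was 1.94 CPM, and that of the 147 was 41.5 CPM. The rule itself favours this contrast, since a transcript at least 8-fold lower reached the minimum of 10 footprint counts only with ample mRNA. IDs whose number does not end in 00 made up 21 of the 49 (42.9%), 10 of the 147 (6.8%) and 3.33% of all transcripts. These groups were chosen by the ratio, and the figures are descriptions with no test. The 2 of the 49 named above had 155 to 251 mRNA counts per shoot.

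In ID order the 34026 listed transcripts were divided into 345 windows of up to 100 neighbours on a chromosome. The 49 fell in 37 windows, of which 32 held 1 and 5 held 2 or more. A window on chromosome 3 held 8, the next highest count was 3, and among the 147 no window held more than 3. A stretch of chromosome 3, numbered from 168000 to below 174000 and delimited after its values were seen, listed 67 transcripts, of which 34 passed the rule. There 10 of the 34 were called at least 8-fold higher, against 0.294% of all transcripts. Their log2 ratios were 3.40 to 7.94, and they include the 2 named above as highest. In all, 19 of the 34 were called higher and 6 lower, against 34.6% and 36% of all transcripts. A further 3 transcripts of the stretch had footprints but too little mRNA for the rule. The 34 held 0.801% of all footprints and 0.249% of all mRNA counts. Whether the stretch holds copies of organelle sequence was not tested. Transcripts with near-identical copies elsewhere are uncertain, because how reads with several matches were counted is not given in the sources used here.

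Over whole chromosomes the ratio varied little. By chromosome the median log2 ratio lay between -0.04 and 0.01, with 32.9% to 36.2% called higher and 34.8% to 37% lower. Neighbouring IDs were barely alike, with a Spearman's rho of 0.045 over 9178 pairs of adjacent transcripts. Both were called in the same direction in 26.3% of the pairs. With 34.6% of all transcripts called higher and 36% lower, many unrelated pairs would share a direction too. The 55 adjacent pairs with equal coding lengths had a rho of 0.458, and 22 pairs (40%) were called in the same direction. Whether pairs of equal length share reads was not tested.

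The ratio also differed with the isoform number that ends an ID. Each gene is listed with 1 transcript, which is numbered 1 for 14367 of the 16677. These had a median log2 ratio of -0.01, with 35.2% called higher and 35.3% lower. It was -0.11 for the 1634 numbered 2, -0.13 for the 464 numbered 3, -0.31 for the 131 numbered 4 and -0.59 for the 81 numbered 5 or above. Of the 81, 24 (29.6%) were called higher and 43 (53.1%) lower, with medians of -0.59, -0.62 and -0.41 in shoots 1, 2 and 3. Median coding length was 465 codons in the 81 and 403 in those numbered 1, and median mRNA levels were 16.2 and 18.1 CPM. Within the transcripts of more than 500 codons the medians were -0.92 for 35 transcripts numbered 5 or above and -0.06 for 5094 numbered 1, and within those of 301 to 500 codons -0.59 and -0.02. Among transcripts of 300 codons or fewer this order did not hold, with medians of 0.06, 0.01, 0.06 and 0.15 for those numbered 1 to 4 and -0.20 for the 13 numbered 5 or above. Other isoforms of these genes were not counted separately in the tables, and their part in this difference was not tested.

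The rule left out 17349 listed transcripts, 3320 with mRNA alone at the minimum mean, 122 with footprints alone and 13907 with neither. The 3320 held 0.132% of footprints and 1.16% of mRNA counts, and 516 of them had 0 footprints in all 3 shoots, below a floor of 3 counts over the group. Their median mean was 24.7 mRNA counts, and 360 had a mean of at least 100. Sobic.007G028400.1, with 130 codons, had 4, 2 and 1 footprint counts and 3744, 4570 and 3536 mRNA counts, and Sobic.003G151100.1, with 95 codons, had 1, 4 and 2 footprint counts and 1778, 2188 and 4507 mRNA counts. The 122 held 0.396% of footprints and 0.0045% of mRNA counts, and 21 of them had a mean of at least 100 footprint counts. Sobic.002G387450.1, with 116 codons, had 10936, 17871 and 11700 footprint counts and 0, 1 and 0 mRNA counts. Sobic.001G394532.1, with 99 codons, had 5488, 8630 and 6819 footprint counts and 5, 7 and 5 mRNA counts. Just inside the rule, 217 transcripts with a footprint mean from 10 to below 11 had a median of 29 mRNA counts, and just outside it 214 with a mean from 9 to below 10 had one of 29.7. On the mRNA side, 15 just inside had a median of 14 footprint counts and 27 just outside one of 13.

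The sulfur-deficient shoots, which the rule did not use, gave the same measure in other plants. Of the 16677 transcripts, 15874 also had a mean of 10 or more counts in both assays there. Among these the control ratio was called for 11365 and the deficient ratio for 10408 (65.6%), and 9691 were called in both in the same direction, 85.3% of the control calls and 93.1% of the deficient calls. Called in opposite directions by edgeR were 0 transcripts, and 96 control calls had the opposite sign in deficient shoots without passing the test there. Of the 4158 compared transcripts called with at least a 2-fold departure in control shoots, 98.1% were called in the same direction in deficient shoots. The mean log2 ratios of the treatments had Pearson's r of 0.972 and Spearman's rho of 0.963 across the 15874, with a median absolute difference of 0.136. The 49 transcripts at least 8-fold higher in control shoots were all called higher in deficient shoots, 41 of them by at least 8-fold. Of the 147 at least 8-fold lower, 126 could be compared, and all 126 were called lower, 106 of them by at least 8-fold.

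**Figure D5:**
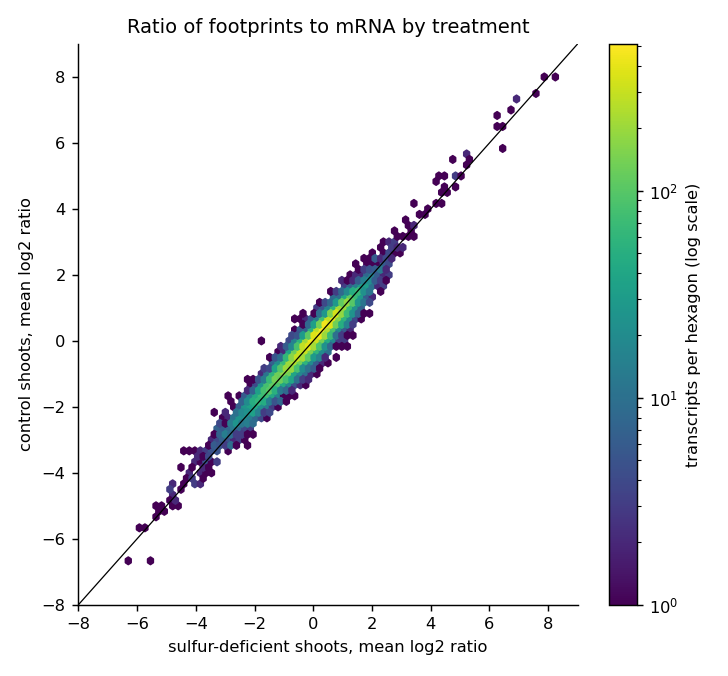
Mean log2 ratio of footprints to mRNA in the 3 control shoots (vertical) against that in the 3 sulfur-deficient shoots (horizontal) for 15874 transcripts, with the line of equality. Colour gives the number of transcripts per hexagon, and the points follow the line over the whole range with r = 0.972.

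The difference between the treatments was itself tested as the control minus the deficient ratio, in 1 model over 12 libraries with each shoot as a block. EdgeR called 0 of 16677 transcripts (lowest adjusted p = 0.995), with 610 (3.66%) at an unadjusted p under 0.05. On the log2 scale, the 95% interval reached a median of 0.435 to either side, and for 80.9% of transcripts the interval lay within a 2-fold difference in either direction. Sobic.003G168600.1 had log2 ratios of 7.38, 8.12 and 8.29 in control shoots and of 7.94, 7.26 and 8.60 in deficient shoots, a difference of -0.03 (SE 0.35, edgeR adjusted p = 0.9998). Sobic.006G135600.4 had -4.52, -4.97 and -5.35 in control shoots and -4.60, -4.65 and -4.85 in deficient shoots, a difference of -0.26 (SE 0.188, edgeR adjusted p = 0.995). The values of the treatments overlap for both.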

How the data were processed

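Per the files' values, the authors deposited unnormalized counts: RNA-seq reads for 34210 transcripts, and footprint P sites summed per coding sequence, with its length, for 34026. The submitters' processing notes name Bowtie2 and STAR but no role for either. No source used here gives the build, annotation, counting program, P-site offsets or method of RNA selection. Footprints of 26 to 34 nt were cut from a gel, per the labels' protocols. Both tables use the same column names, so a column's assay is that of its table.

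Libraries were scaled by TMM over the members, with totals over all transcripts. The assay term was tested with edgeR 4.0.16 (robust quasi-likelihood, shoot as a block, adjusted p threshold 0.05) in R 4.3.3. Ratios per shoot used a prior count of 2. The shoot pairs the libraries per the labels' protocols, and deviations of the same shoot correlated at 0.205, 0.412 and 0.434 between assays. The p-values of the edgeR test rest on the spread between these 3 shoots, moderated towards that of the other transcripts. They thus do not measure the spread of a single transcript's 3 ratios alone. Each SE was derived from the test, as the absolute log2 ratio over the square root of its F statistic, so the same holds for it. The SD of the 3 log2 ratios was 0.487 for Sobic.003G168600.1 and 0.417 for Sobic.006G135600.4. For Sobic.003G168600.1 limma on the ratios gave an SE of 1.27 (limma adjusted p = 0.003595). No pair of libraries agreed within sampling noise (chi-square per degree of freedom 2.93 to 12.9). In simulated counts with 200 changed transcripts among 16677, the edgeR test recovered 70.1% of 1.5-fold, 94% of 2-fold and 100% of 4-fold changes. There were 15 false calls among 191 (7.85%). No effect of the shoot was simulated. In the data 11769 transcripts (70.6%) were called, far more than the 200, so these shares do not carry over to the calls.

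Transcripts, lists and tests were chosen with earlier results of these data known. Of the 34026 IDs, 0 matched the reference table (Sorghum_bicolor_NCBIv3), so the 39 gene lists prepared on product descriptions, tissue markers included, gave no value and no sequence was printed. Named were the 2 highest and 2 lowest ratios with the same sign in 3 shoots and a mean of 100 or more counts in both tables, and members of the 8 with the most footprints. The 4 examples outside the rule, those with the most counts, were chosen after their values were seen. Alternatives were DESeq2 1.42.0, limma 3.58.1, other scalings and filters, no block, a 2-fold threshold and each shoot left out. The intervals of the treatment difference are not an edgeR output. They were built as a t quantile times an SE derived from the F statistic of the edgeR fit. They include the moderated spread between shoots as well as counting error. Floors cover counting error only. Chromosomes were read from the IDs.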

Additional observations from a re-analysis of the deposited data

How the results depend on the processing

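The number of transcripts with a called ratio, 11769, stayed within 1.5 times of that value under every alternative run except the test against a 2-fold threshold, which called 2661 by construction. With no replicate block edgeR called 10843, DESeq2 called 10059, and leaving out 1 shoot gave 9687 to 11792. The label number of the shoot as a block thus changed no count by over 1.5 times, and no call of a named transcript changed without it. Scaling by library totals kept 11814 calls but moved the split to 33.5% higher, against 49% with TMM, and the transcripts called at least 2-fold higher to 802, against 1617. In 2 of the 8 most abundant transcripts, Sobic.001G177000.1 and Sobic.007G071500.1, neither called with TMM, it reversed the log2 ratio to -0.19 and -0.18, both called. With a mean of at least 50 counts, which removes transcripts by construction, there were 896 called at least 2-fold higher and 1672 lower, an SD of the ratio of 0.882, a 5th to 95th percentile span of 6.85-fold and a correlation of mean footprint and mRNA levels of 0.854 (0.885 with all). With no filter 4476 were called at least 2-fold lower, against 2847. The share of control calls also called in deficient shoots was 86.2% with at least 50 counts and 84.4% to 93.1% with 1 control shoot left out, for which the cause was not tested. The rho with coding length, -0.0714, was -0.101 to -0.0515 with 1 shoot left out and -0.116 with at least 50 counts. The correction for coding length was chosen after seeing the data. Depth limits the ratio of transcripts with few counts, where the median counting SD was near the median SD between shoots. No setting was varied for gene lists, because 0 IDs matched the reference.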
